A study of Arabidopsis thaliana with 6 samples.

Results

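The transcripts of the mitochondrial genome were examined in *3h1* and wild-type (wt) seedlings of *Arabidopsis thaliana*. They were taken as every gene of the count table whose identifier starts with ATMG, the prefix of mitochondrial loci, which gave 128 of 26764 genes. The *3h1* plants carry the alleles h1.1-1, h1.2-2 and h1.3-2, T-DNA insertions in the genes for the linker histones H1.1, H1.2 and H1.3, in the Col-0 background. The mutant line is not wholly Col-0, because h1.3-2 comes from the accession Ler and DNA of that accession persists near the locus. The wt plants have the Col-0 background. Captions for other experiments of the authors describe their wt as segregants, siblings of the mutant line. Both genotypes were grown on agar medium in long days and harvested at 3 weeks, and pools of whole seedlings gave 3 biological replicates each, 6 libraries in all. Whole seedlings hold many cell types, so fewer cells rich in mitochondria and less mitochondrial RNA per cell cannot be told apart.

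Plant mitochondria keep a small genome of their own. It encodes a few subunits of the respiratory chain and of the ATP synthase, factors that attach haem to cytochrome c, some ribosomal proteins, and ribosomal and transfer RNAs, while most mitochondrial proteins are encoded in the nucleus and imported. The respiratory complexes are therefore built from subunits of both genomes. Mitochondrial DNA is packed in nucleoids without histones, and it is transcribed by phage-type RNA polymerases that are themselves nuclear gene products. In Col-0, a large copy of mitochondrial DNA also lies in the nucleus, in the pericentromere of chromosome 2, so that reads of a mitochondrial gene can match a nuclear locus as well.

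The total count was between 5115676 and 6174881 in the *3h1* libraries and between 4753812 and 5924967 in the wt libraries. With replicates 1, 2 and 3 given in this order throughout, *H1.1* (AT1G06760) had 84, 104 and 120 counts in *3h1*, against 416, 414 and 349 in wt seedlings, and *H1.2* (AT2G30620) had 86, 76 and 87.9 counts in *3h1*, against 420, 350 and 420 in wt. Both were lower in *3h1* than in wt in every pair of libraries (adjusted p = 0.00163 and 4.05e-05 in edgeR). *H1.3* was not analysed here. Chloroplast genes held 52.2 to 54.5% of the count in *3h1* and 55.5 to 60.0% in wt. The values are expected counts, in which the authors divided each read that matched several loci between them, and 58 of the 128 mitochondrial genes had a fractional count in at least 1 library, 18 of them in all 6.

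Only 24 of the 128 identifiers could be given a name, through RefSeq notes on chromosome 2 genes whose protein matches a mitochondrial one, and the other 104 are given by identifier alone. Levels are given as CPM, the count of a gene scaled by the library size after TMM normalization, a scaling that assumes that most genes do not differ. CPM are not corrected for gene length, so they compare libraries for one gene and do not rank genes by transcript number.

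The first comparison asked how much of the count was mitochondrial. Ribosomal RNA was depleted and its leftover reads were discarded, so this is not a share of total RNA. Mitochondrial genes held 75448, 53292 and 66902 counts in the *3h1* libraries, against 57022, 55004 and 54975 counts in wt. As a share of the total count this was 1.22, 1.04 and 1.09% in *3h1*, against 0.962, 1.16 and 0.992% in wt. The groups overlapped, and their means of 1.12 ± 0.0926% in *3h1* and 1.04 ± 0.105% in wt (SD, n = 3 each) did not differ beyond the spread between libraries (two-sided exact permutation test, p = 0.4). With 3 libraries against 3 this test cannot give a p value under 0.1.

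The direction depended on the denominator. Because the chloroplast share was lower in *3h1*, the mitochondrial count was also set against the nuclear count. There were 2.62, 2.34 and 2.40 mitochondrial counts per 100 nuclear counts in *3h1*, against 2.21, 2.98 and 2.53 in wt. The mean was 2.45 ± 0.149 in *3h1* and 2.57 ± 0.387 in wt (SD, n = 3 each), and again the groups overlapped (exact permutation test on the log2 ratios, p = 0.8). Without wt replicate 2, which had the highest ratio of all, the log2 difference of *3h1* from wt was 0.05, against -0.06 with all libraries.

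One gene accounted for much of the scatter. ATMG00360, which has no name in the reference used here, had the highest mean count, and it took 25.3, 15.5 and 20.6% of the mitochondrial count in *3h1* and 6.72, 28.2 and 16.6% in wt. With ATMG00360 left out, there were 1.96, 1.98 and 1.90 mitochondrial counts per 100 nuclear counts in *3h1*, against 2.06, 2.14 and 2.11 in wt. All 3 *3h1* libraries now lay below all 3 wt libraries, with means of 1.95 ± 0.0395 in *3h1* and 2.10 ± 0.0394 in wt (SD, n = 3 each), a log2 difference of -0.11 at the smallest p value the exact permutation test allows (p = 0.1). The difference was between -0.13 and -0.10 with each library left out in turn. On the total count, the remaining genes gave 0.913, 0.880 and 0.869% in *3h1*, against 0.898, 0.831 and 0.828% in wt, so that here *3h1* was the higher group, with overlap (exact permutation test, p = 0.3).

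**Figure D1:**
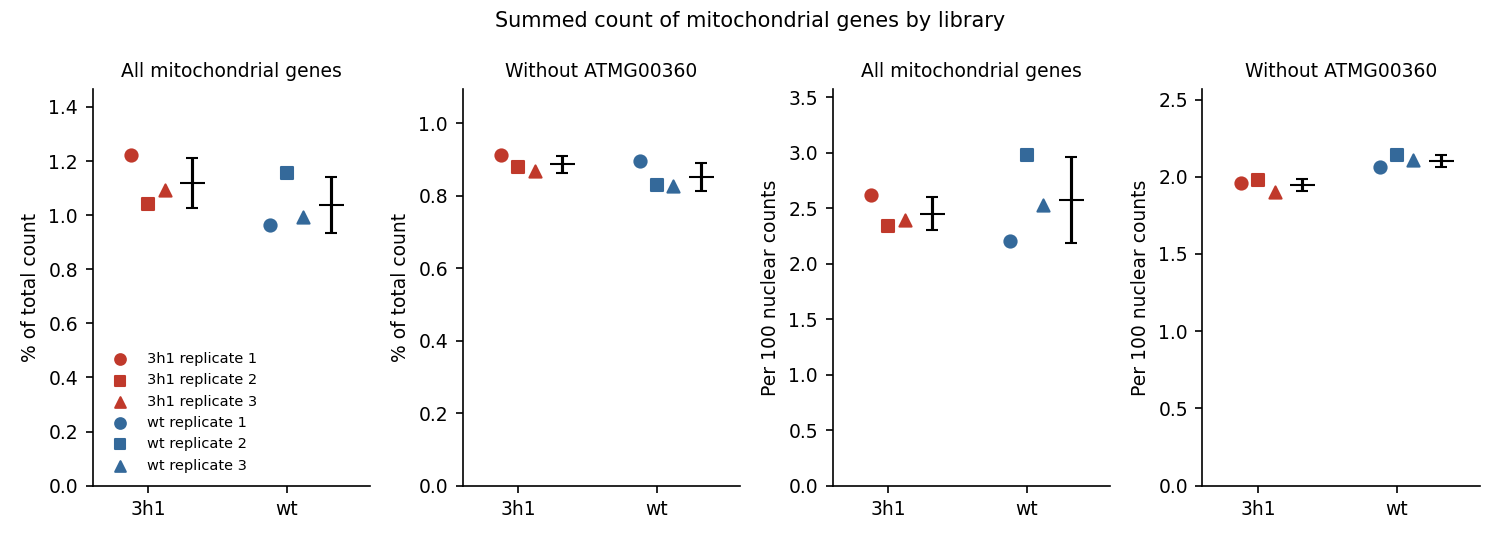
Summed count of mitochondrial genes in each library as a percent of the total count (left pair of panels) and per 100 nuclear counts (right pair), with and without ATMG00360. Points are libraries, and bars show the mean ± SD of 3 libraries. The groups separate only in the last panel, where the *3h1* libraries lie between 1.90 and 1.98 and the wt libraries between 2.06 and 2.14.

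The genes were then compared one by one in a fit over the whole table with edgeR's quasi-likelihood test. Of the 128 mitochondrial genes, 91 passed the filter on low counts, which asks for about 10 counts at median depth in 3 libraries. The 37 others had at most 14 counts in any library. Their summed level was 22.5, 14.3 and 28.3 CPM in *3h1*, against 17.9, 17.1 and 20.5 CPM in wt, with overlap. Among them was ATMG01110, named after an RNA-dependent RNA polymerase of mitoviruses, with 5, 2 and 6 counts in *3h1* and 1, 5 and 2 counts in wt.

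No mitochondrial gene had an adjusted p value under 0.05 (Benjamini-Hochberg over 17453 genes), against 7 of all genes tested, or 0.0401%. DESeq2 and limma voom also gave 0. Without adjustment, 8 of the 91 genes passed the threshold of 0.05 in edgeR, or 8.79%, against 9.5% of all genes tested, and the number was 7 in DESeq2 and 10 in limma voom. The share among mitochondrial genes was thus close to the background in edgeR. It was 7.69% in DESeq2, against 5.7% of all genes, and 10 of 91 in limma voom, against 8.66%. These shares rest on few genes, and no enrichment is read from them. Of the 8 genes in edgeR, 6 were lower in *3h1* (6.59%, against 4.17% of all genes) and 2 were higher (2.2%, against 5.33%). Without *3h1* replicate 2 the 8 became 17 of 91, or 18.7%, against 15.0% of all genes tested there, and 13 of these were lower (14.3%, against 5.78%). Without wt replicate 2 they became 13 of 92, or 14.1%, against 8.77% of all genes.

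Most small differences pointed downwards. The median log2 fold change of *3h1* over wt was -0.14 over the 91 genes, against a median of 0.01 over all genes tested. Of the 91, 60 lay below 0 and 31 above, so that 65.9% were below, against 48.8% of all genes tested. Chloroplast genes had a median of -0.19, with 81.6% below 0. The *3h1* libraries lay wholly below the wt libraries for 14 of the 91 genes, or 15.4%, against 7.53% of all genes tested, and wholly above them for 2 genes, or 2.2%, against 7.6%. They lay wholly below for 30.4% of chloroplast genes and 14.0% of the nuclear respiratory chain genes described below. The sign depends on the scaling. When the counts were divided by the library totals alone, the median was 0.09 for mitochondrial genes and 0.24 for all genes, so that the gap between both medians was -0.15 with that scaling and -0.15 with TMM, while the side of 0 was not the same. The number of mitochondrial genes lower in *3h1* at an unadjusted p value under 0.05 was then 1, or 1.1%, against 0.756% of all genes.

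**Figure D2:**
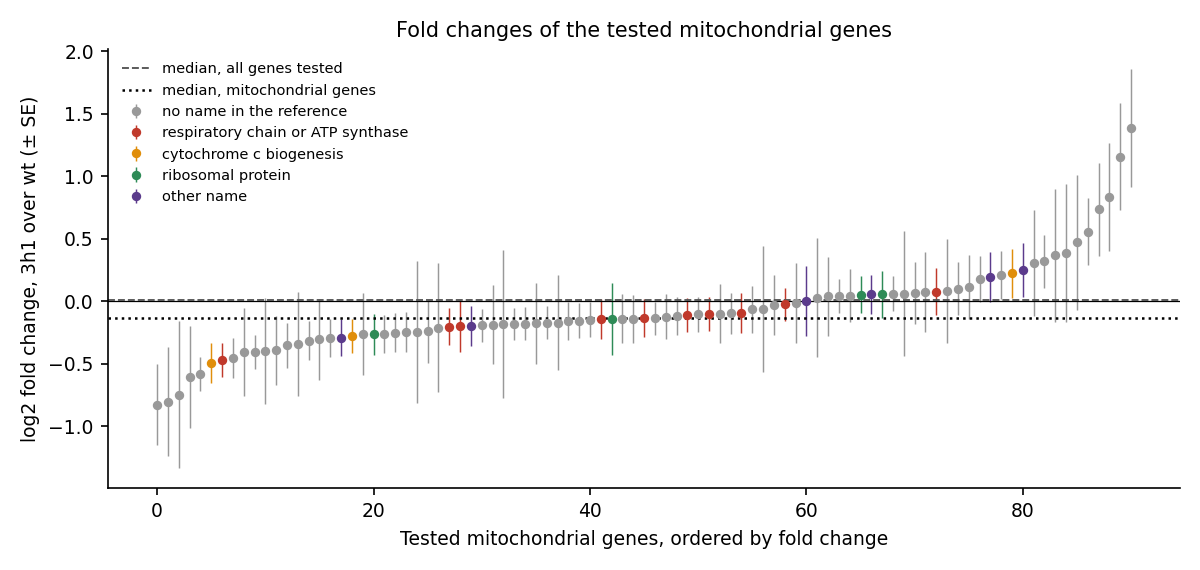
Log2 fold change of *3h1* over wt with its standard error for the 91 tested mitochondrial genes, ordered by value and coloured by annotation. The dotted line is their median (-0.14), the dashed line the median of all genes tested (0.01), and the values run from -0.83 (ATMG01060) to 1.39 (ATMG00910), with the named genes between -0.49 and 0.25.

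Complex I (NADH dehydrogenase) takes electrons from NADH and is the first proton pump of the chain. Its 3 named genes did not pass the test. ATMG00990 (NADH dehydrogenase 3) had 9.70, 10.09 and 12.3 CPM in *3h1*, against 12.2, 9.72 and 14.8 CPM in wt, a log2 fold change of -0.20 (SE 0.21). ATMG01275 (NADH dehydrogenase 1A) had 26.6, 32.7 and 20.2 CPM in *3h1*, against 26.1, 22.4 and 26.4 CPM in wt, a log2 fold change of 0.08 (SE 0.18). ATMG01320 (NADH dehydrogenase 2B) lay at -0.09 (SE 0.16). In all 3 the groups overlapped, and for ATMG01275 and ATMG01320 the wt range lay inside the *3h1* range.

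Complex III passes electrons from ubiquinol to cytochrome c, and complex IV (cytochrome c oxidase) passes them on to oxygen. ATMG00220, named as apocytochrome b, the haem-carrying core of complex III, had 137, 144 and 133 CPM in *3h1*, against 136, 142 and 142 CPM in wt. It was the steadiest of the 53 mitochondrial genes with a mean of at least 100 counts, with a highest over lowest library of 1.08, and its log2 fold change was -0.02 (SE 0.13, adjusted p = 0.97 in edgeR). ATMG00730, named as subunit 3 of cytochrome c oxidase, had 141, 135 and 130 CPM in *3h1*, against 152, 137 and 147 CPM in wt, a log2 fold change of -0.10 (SE 0.13). ATMG01280, which matches a transmembrane domain of subunit II of that enzyme, lay at 0.05 (SE 0.16), and its count was fractional in all 6 libraries. Its count and that of ATMG00160, which has no name in the reference, added up to whole numbers in 5 of 6 libraries, within 0.01, and missed by 0.021 in the other, as for reads divided between both. No gene named here as a respiratory subunit passed the test. The reference lists further complex I, complex IV and ATP synthase genes on the mitochondrial genome that could not be matched to an identifier. Such genes can be among the 104 without a name.

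The ATP synthase turns the proton gradient into ATP. Its 5 named genes all had log2 fold changes below 0, from -0.47 to -0.11, with a median of -0.14, beside -0.14 over all tested mitochondrial genes. ATMG01190 (subunit 1, a part of the catalytic head) had 727, 843 and 678 CPM in *3h1*, against 871, 807 and 794 CPM in wt, at -0.14 (SE 0.15). The proton-carrying ring is built from subunit 9, for which both ATMG01080 and ATMG01090 are named, at -0.20 (SE 0.15) and -0.14 (SE 0.16). ATMG00480 (subunit 8) lay at -0.11 (SE 0.14). The groups overlapped for these 4 genes.

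The remaining ATP synthase gene was ATMG00410, named as ATPase subunit 6-1, which lines the path of the protons through the membrane. It had 133, 151 and 129 CPM in *3h1*, against 199, 182 and 191 CPM in wt. All *3h1* libraries lay below all wt libraries, and the log2 fold change was -0.47 (SE 0.14, adjusted p = 0.327 in edgeR). Its count was fractional in 5 libraries, so part of its reads was divided with other loci. A likely partner was ATMG01170, which has no name in the reference and had the smallest p value of all mitochondrial genes.

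ATMG01170 had 87.1, 92.3 and 82.7 CPM in *3h1*, against 131, 121 and 141 CPM in wt, without overlap, a log2 fold change of -0.58 (SE 0.14, adjusted p = 0.265 in edgeR). The counts of ATMG00410 and ATMG01170 were both fractional in 5 libraries, and there they added up to whole numbers in 4, within 0.01, and missed by 0.025 in *3h1* replicate 1. In *3h1* replicate 2 each was whole by itself. The fractions thus matched as they would for reads divided between both, and the values of the pair were not taken as independent of each other. Their sum, which does not depend on how those reads were divided between both, was 220, 243 and 211 CPM in *3h1*, against 329, 303 and 332 CPM in wt, again without overlap. ATMG01170 stayed under an unadjusted p value of 0.05 in all 16 alternatives run, with adjusted p values from 0.0912 to 0.671. ATMG00410 did so in 15 of 16, the exception being library totals without TMM factors (adjusted p = 0.505 in edgeR, within a range of 0.118 to 0.731 over its alternatives).

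Cytochrome c needs its haem attached inside the mitochondrion, and 3 named genes belong to that machinery. ATMG00960, named as a cytochrome C assembly protein, had 15.8, 18.7 and 17.8 CPM in *3h1*, against 26.9, 21.2 and 25.2 CPM in wt, without overlap and with whole counts in every library. Its log2 fold change was -0.49 (SE 0.16, adjusted p = 0.36 in edgeR). It no longer passed the unadjusted threshold without wt replicate 1 (log2 fold change -0.42, adjusted p = 0.571 in edgeR) or with library totals without TMM factors (log2 fold change -0.27, adjusted p = 0.53 in edgeR), within a range of 0.172 to 0.77 over its alternatives. ATMG00180, named for cytochrome C biogenesis, had 50.9, 56.1 and 50.6 CPM in *3h1*, against 59.5, 70.5 and 61.3 CPM in wt, also without overlap, but did not pass the test (log2 fold change -0.28, SE 0.14, adjusted p = 0.558 in edgeR). ATMG00900, with the same kind of name, had 11.2, 15.1 and 13.8 CPM in *3h1*, against 13.1, 9.47 and 11.4 CPM in wt, on the other side of 0 (0.22, SE 0.20) and with overlap. The 3 genes therefore did not share a direction.

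Mitochondrial ribosomes translate these messages, and none of the 4 named ribosomal protein genes passed the test. The lowest log2 fold change was that of ATMG00290 (ribosomal protein S4), with 38.6, 39.1 and 27.4 CPM in *3h1*, against 38.4, 43.1 and 44.7 CPM in wt (-0.26, SE 0.16). ATMG00210 (L5) and ATMG00980 (S12) lay at 0.05 each. ATMG01270 (S7) had 9.10, 12.5 and 9.72 CPM in *3h1*, against 9.36, 7.48 and 17.5 CPM in wt, so that wt replicates 2 and 3 held both the lowest and the highest value.

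**Figure D3:**
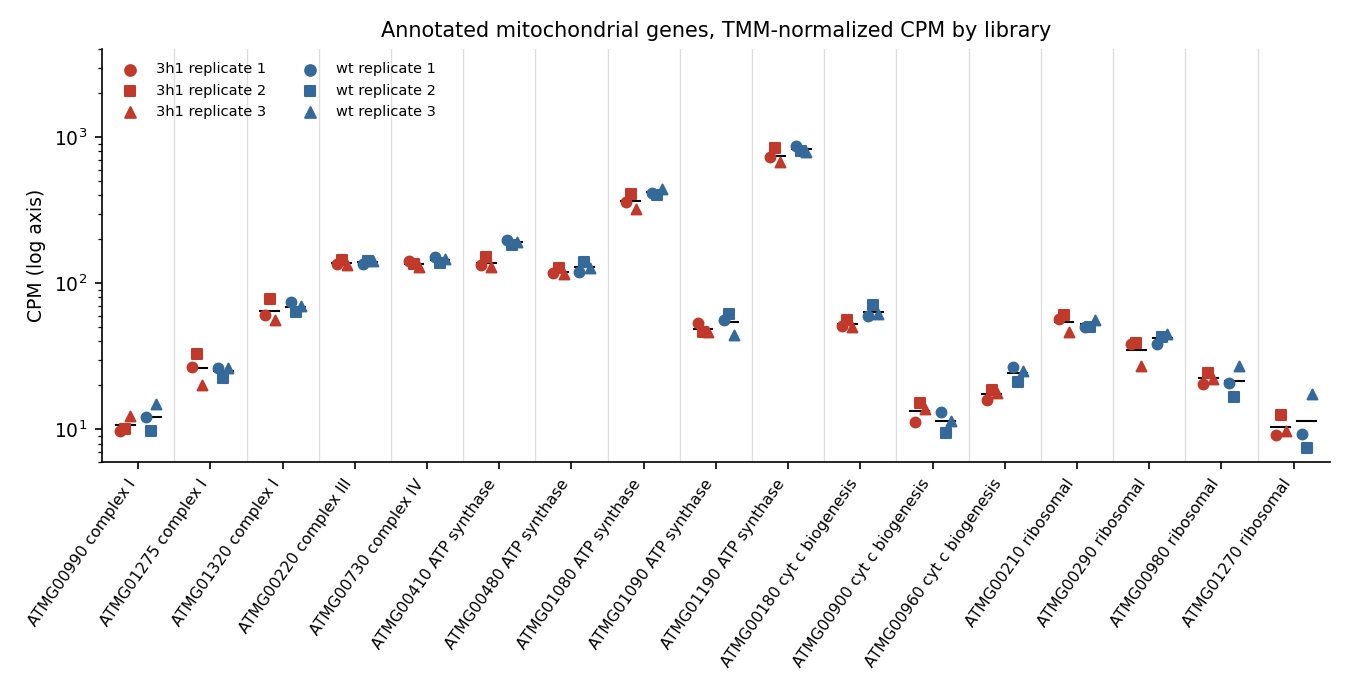
CPM of the named respiratory chain, ATP synthase, cytochrome c biogenesis and ribosomal protein genes in each library, on a log axis. For each gene the *3h1* libraries stand left of the wt libraries, and black bars are group means. Only ATMG00410, ATMG00180 and ATMG00960 have *3h1* points that all lie below the wt points.

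The remaining names matched other proteins or protein domains, and they do not show whether a gene belongs to the groups above. ATMG00280 matches the catalytic domain of the large chain of rubisco, the carbon-fixing enzyme of chloroplasts, and plant mitochondrial genomes hold stretches of chloroplast origin. It had the second highest mean count, with 1133, 1324 and 1265 CPM in *3h1*, against 1329, 1311 and 1629 CPM in wt, with overlap and a log2 fold change of -0.20 (SE 0.16). No library gave it a whole count, so its level rests in part on how reads were divided. ATMG00370, which matches the chloroplast protein Ycf1, had 9.43, 8.70 and 7.67 CPM in *3h1*, against 8.02, 5.77 and 7.75 CPM in wt (0.25, SE 0.22). ATMG00560 (an OB-fold, a fold that binds nucleic acids), ATMG00590 (cytochrome b/b6) and ATMG00610 (a putative membrane lipoprotein) lay at -0.29 (SE 0.15), 0.19 (SE 0.20) and 0.00 (SE 0.28) and did not pass the test.

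The other 5 genes with an unadjusted p value under 0.05 carry no name in the reference used here. Whether any of them encodes a respiratory subunit could not be told. ATMG00513 had 102, 98.3 and 110 CPM in *3h1*, against 141, 132 and 139 CPM in wt, without overlap, a log2 fold change of -0.41 (SE 0.13, adjusted p = 0.372 in edgeR). It missed the unadjusted threshold with library totals without TMM factors (adjusted p = 0.643 in edgeR) and met it in the other 15 alternatives, with adjusted p values from 0.242 to 0.748 over all 16. ATMG00650 had 50.9, 72.5 and 57.1 CPM in *3h1*, against 81.8, 75.8 and 89.5 CPM in wt (-0.46, SE 0.16, adjusted p = 0.398 in edgeR). Here *3h1* replicate 2 lay close to the lowest wt library, and the unadjusted threshold was missed without *3h1* replicate 1 (adjusted p = 0.787 in edgeR), without wt replicate 3 (0.737) and with library totals (0.566), within a range of 0.0957 to 0.787 over its alternatives. ATMG01060 was a rarer transcript, with 2.90, 2.66 and 2.33 CPM in *3h1*, against 5.11, 5.49 and 3.42 CPM in wt (-0.83, SE 0.32, adjusted p = 0.447 in edgeR). It held fractional counts in each library, and it missed the unadjusted threshold without *3h1* replicate 3 (adjusted p = 0.722 in edgeR), without wt replicate 1 (0.622), without wt replicate 2 (0.604), with library totals (0.45) and in DESeq2 (0.915), the highest value in a range that began at 0.303 over its alternatives.

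The 2 higher genes were also the only mitochondrial genes that passed both the unadjusted threshold and a 2-fold change, which 3.07% of all genes tested did (2.63% higher and 0.435% lower in *3h1*). Both are described as unknown proteins in the reference. It also lists a matching locus on chromosome 2 for each, AT2G07773 for ATMG00910 and AT2G07776 for ATMG00530. Whether reads from those loci enter these counts was not tested. ATMG00910 had 34, 9 and 24.1 counts in *3h1*, against 9, 5 and 6 counts in wt, a log2 fold change of 1.39 (SE 0.47, adjusted p = 0.38 in edgeR). *3h1* replicate 2 stood at 1.68 CPM, close to the 1.48 CPM of wt replicate 1, so that the high values were those of *3h1* replicates 1 and 3. ATMG00530 had 19, 13 and 31.0 counts in *3h1*, against 8, 8 and 6 counts in wt, a log2 fold change of 1.16 (SE 0.43, adjusted p = 0.414 in edgeR). Both genes passed the filter on low counts through the *3h1* libraries alone, so that a gene with this pattern had to be higher in *3h1* to be tested. The number of mitochondrial genes past both thresholds was 0 without *3h1* replicate 3 (2.24% of all genes tested there), 1 without *3h1* replicate 1 (2.5%), 4 without *3h1* replicate 2 (4.4%, against 7.37%) and 4 without wt replicate 2 (4.35%, against 3.96%), and it was 0 where 10 counts were asked of every library (1.25% of all genes). ATMG00530 missed the unadjusted threshold without *3h1* replicate 3 (adjusted p = 0.786 in edgeR), without wt replicate 1 (0.603) and without wt replicate 3 (0.74), within a range of 0.214 to 0.786 over its alternatives.

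**Figure D4:**
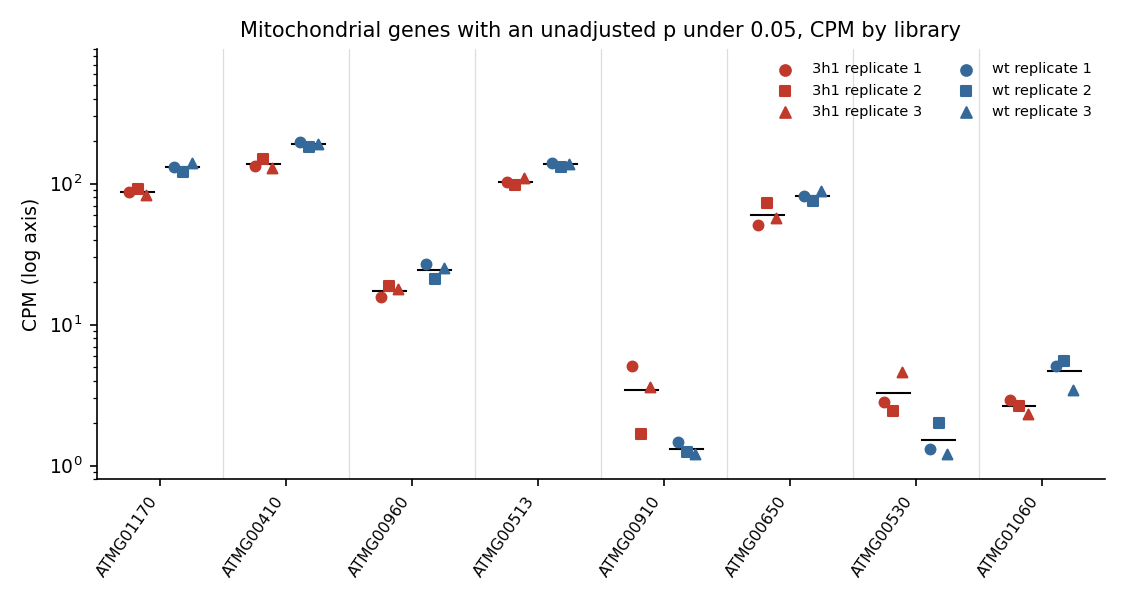
CPM in each library, on a log axis, of the 8 mitochondrial genes with an unadjusted p value under 0.05 in edgeR, ordered by p value. The *3h1* libraries stand left of the wt libraries, and black bars are group means. The groups do not overlap in any of the 8 genes, and ATMG00910, ATMG00530 and ATMG01060 lie at or under 5.49 CPM in every library.

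Next to these genes by p value came ATMG00190 and ATMG00180. ATMG00190 had 10.6, 8.22 and 13.9 CPM in *3h1*, against 5.26, 8.48 and 8.93 CPM in wt, with overlap (0.56, SE 0.27, adjusted p = 0.55 in edgeR). ATMG00180 was described with the cytochrome c genes. Of the remaining genes with the highest counts, ATMG01360 had 614, 690 and 534 CPM in *3h1*, against 780, 708 and 763 CPM in wt, without overlap (-0.29, SE 0.15, adjusted p = 0.589 in edgeR). ATMG00090, ATMG00160, ATMG00640 and ATMG00580 lay between -0.24 and -0.10, each with overlap.

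The composition of the mitochondrial count was then described, with each gene as a percent of the summed mitochondrial count of its library. The 10 genes with the highest mean count made up 61.0 to 62.3% of it in *3h1* and 58.3 to 63.3% in wt. ATMG00360 and ATMG00280 led, the first with the shares given above and the second with 10.06, 13.3 and 12.6% in *3h1*, against 14.2, 9.57 and 14.6% in wt. In wt replicate 1, ATMG00280, ATMG01190 (9.30%) and ATMG01360 (8.33%) all outranked ATMG00360 (6.72%), which led in every other library. Over the 90 genes with a mean of at least 10 counts, the median log2 ratio of the share in *3h1* over that in wt was -0.03, and 0.03 when ATMG00360 was left out of the sum. The ratio ran from -0.73 (ATMG01060) to 1.45 (ATMG00910).

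The spread between libraries was uneven among the genes. Over the 53 mitochondrial genes with a mean of at least 100 counts, the highest library exceeded the lowest 1.43-fold in the median, and 30 genes stayed under 1.5-fold. A range over 2-fold was seen in 10 genes, or 18.9%, against 11.1% of nuclear genes and 24.8% of chloroplast genes at the same minimum. The nuclear genes here include the nuclear tRNA genes described below. None of the 10 carries a name in the reference. The widest was that of ATMG00700, with 198, 58.1 and 156 CPM in *3h1*, against 41.8, 326 and 103 CPM in wt, a 7.79-fold range. ATMG00100 had 199, 62.1 and 165 CPM in *3h1*, against 50.7, 346 and 110 CPM in wt, a 6.83-fold range. ATMG00360 had 2847, 1546 and 2063 CPM in *3h1*, against 629, 3863 and 1849 CPM in wt, a 6.14-fold range. In these genes the wt libraries held both extremes, with wt replicate 2 highest and wt replicate 1 lowest.

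This pattern recurred. Of the 10 genes, 9 were highest in wt replicate 2, 7 were lowest in wt replicate 1, and 7 showed both (ATMG00700, ATMG00100, ATMG00360, ATMG00350, ATMG00800, ATMG00780 and ATMG00330). Apart from ATMG00360 and ATMG09980, which were among the 10 with the highest mean counts, these genes were chosen for naming after their values were seen. ATMG00350 had 118, 53.6 and 109 CPM in *3h1*, against 40.4, 157 and 70.2 CPM in wt. ATMG00800 had 149, 55.1 and 99.3 CPM in *3h1*, against 50.9, 187 and 149 CPM in wt. Among the *3h1* libraries, replicate 2 was the lowest in both, as in ATMG00700, ATMG00100 and ATMG00360. ATMG09980, with fractional counts in every library, had 263, 183 and 274 CPM in *3h1*, against 201, 472 and 274 CPM in wt. None of the 10 genes passed the test, and the standard errors of their log2 fold changes reached 0.59 (ATMG00700), against 0.13 for ATMG00220.

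The summed level of the 478 nuclear tRNA genes in the table moved between libraries in the same way. It was 9895, 7449 and 11680 CPM in *3h1*, against 5715, 15340 and 6832 CPM in wt, so that wt replicate 2 was the highest and wt replicate 1 the lowest, and *3h1* replicate 2 the lowest of its group. Of the 73 nuclear tRNA genes with a mean of at least 100 counts, 58 had a range over 2-fold, or 79.5%. Of these 58, 35 were highest in wt replicate 2 and lowest in wt replicate 1, against 40 of 444 among nuclear genes as a whole. The nuclear genes include the tRNA genes, so the 444 contain those 58 and the 40 contain those 35. Chloroplast genes moved in this way too, since of the 30 with a range over 2-fold, 27 were highest in wt replicate 2, 19 were lowest in wt replicate 1 and 18 showed both. The reference also lists tRNA genes on the mitochondrial genome, but none could be matched to an identifier. Whether any unnamed mitochondrial gene with a range over 2-fold is one could not be told. The nuclear tRNA list was chosen after the pattern had been seen, the libraries are the same, and its part in the mitochondrial result was not tested. As a difference between the genotypes the tRNA sum showed nothing beyond the spread (exact permutation test, p = 0.9).

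**Figure D5:**
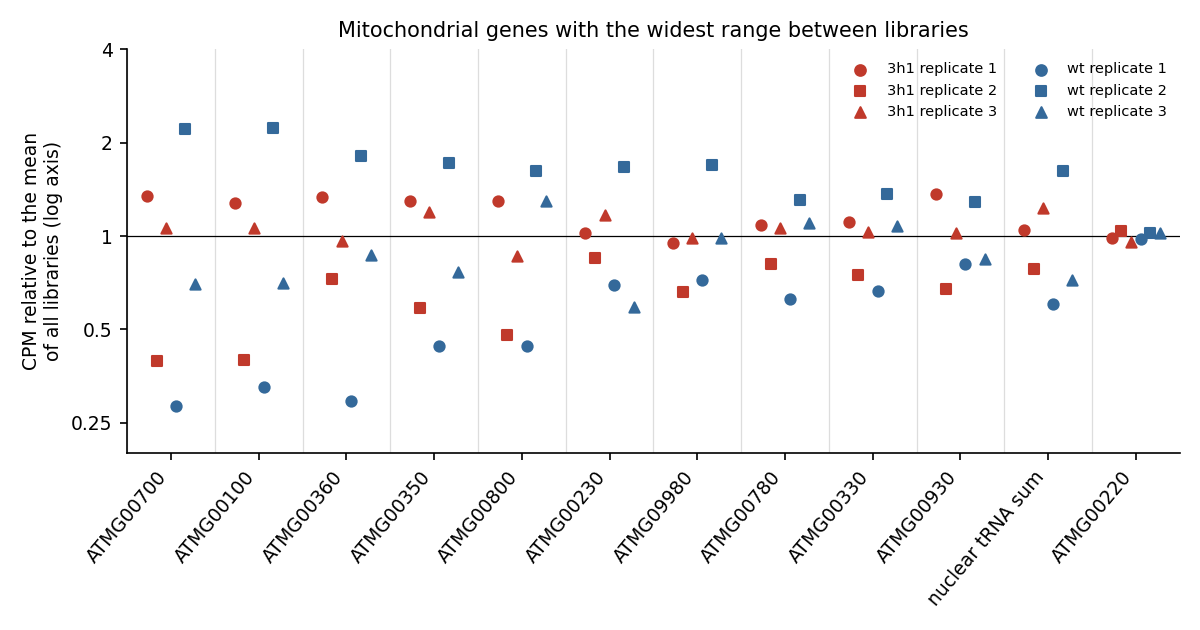
CPM of the 10 mitochondrial genes with a range over 2-fold, of the summed nuclear tRNA genes and of ATMG00220, each divided by its mean over all libraries, on a log axis. The *3h1* libraries stand left of the wt libraries. wt replicate 2 (blue square) is highest in 9 of the 10 genes and in the tRNA sum, whereas the points of ATMG00220 nearly coincide.

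Several genes could be matched to a likely partner, since reads divided between only those loci give fractions that add up to whole numbers. A whole sum does not show that no other locus matched these reads. Within 0.01, the counts of ATMG00330 and ATMG00780 added up to whole numbers in all 6 libraries, and so did those of ATMG00490 and ATMG00500, of ATMG01000 and ATMG01010, and of ATMG00930 and the chloroplast gene ATCG00610. For the last pair 5 libraries bear on this, since both counts were whole by themselves in *3h1* replicate 2. The sum of ATMG00330 and ATMG00780 was 216, 154 and 206 CPM in *3h1*, against 127, 263 and 214 CPM in wt, so that the wide range of both, 2.05-fold and 2.08-fold apart, stood beside a range of 2.06-fold in their sum. ATMG01010 was different, with 7.15, 4.21 and 9.55 CPM in *3h1*, against 6.98, 12.7 and 7.06 CPM in wt, a 3.02-fold range, while its sum with ATMG01000 ranged 1.35-fold. These pairs were found from the values and were not chosen in advance. For 44 of the 128 genes the reference lists a matching locus on chromosome 2, and the counts of those nuclear loci were not analysed here.

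Nuclear genes whose products work with the mitochondrial ones gave a similar picture. They were found by words in their names or descriptions, so the list is partial. Of the ATP synthase it holds only genes named for the D chain or for subunit G. Of 54 genes in the table named as subunits of complexes I to V, 50 were tested, of which 3 were lower in *3h1* at an unadjusted p value under 0.05 and 0 were higher in edgeR, against 4.17% and 5.33% of all genes tested. DESeq2 gave 2 genes (4.0%, against 5.7% of all genes) and limma voom 4 (8.0%, against 8.66%), all of them lower in *3h1*. None had an adjusted p value under 0.05. Their median log2 fold change was -0.10, with 34 genes below 0 (68.0%, against 48.8% of all genes tested) and 16 above. AT1G15120, a hinge protein of complex III, had 8.78, 10.5 and 9.32 CPM in *3h1*, against 12.9, 15.5 and 16.6 CPM in wt, without overlap (-0.66, SE 0.18, adjusted p = 0.311 in edgeR). *SDH8* (AT2G46390), a subunit of succinate dehydrogenase, or complex II, had 5.97, 9.34 and 7.48 CPM in *3h1*, against 11.5, 11.5 and 11.6 CPM in wt (-0.61, SE 0.21, adjusted p = 0.396 in edgeR). The number was 1 of 50 without *3h1* replicate 1 (6.59% of all genes), 5 of 51 without wt replicate 2 (8.77%), and 1 of 50 with library totals without TMM factors (14.2%).

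Plants can also send electrons past the proton-pumping complexes, through alternative NAD(P)H dehydrogenases and alternative oxidases, several of which are known to respond to mitochondrial stress. Of 14 genes of this kind in the table, among them factors of mitochondrial gene expression and genome upkeep, 10 were tested. *AOX1A* (AT3G22370), the main alternative oxidase, had 36.4, 51.2 and 29.2 CPM in *3h1*, against 37.9, 47.9 and 41.6 CPM in wt, with overlap (-0.13, SE 0.20, adjusted p = 0.872 in edgeR), and was named for this role after its value was seen. *NDB3* (AT4G21490), an external alternative NAD(P)H dehydrogenase, had 5.22, 3.74 and 5.36 CPM in *3h1*, against 1.81, 3.49 and 2.28 CPM in wt (0.97, SE 0.35, adjusted p = 0.403 in edgeR). *NDA1* (AT1G07180), an internal one, had 4.62, 4.11 and 3.89 CPM in *3h1*, against 5.09, 9.97 and 6.70 CPM in wt (-0.76, SE 0.29, adjusted p = 0.447 in edgeR). These were the only 2 of the 10 with an unadjusted p value under 0.05, against 9.5% of all genes tested, and they differed in direction. The number was 0 of 10 without *3h1* replicate 3 (7.22% of all genes), 1 of 10 without *3h1* replicate 1 (6.59%), 1 of 11 without wt replicate 2 (8.77%) or wt replicate 3 (7.05%), and 4 of 11 without *3h1* replicate 2 (15.0%).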

How the data were processed

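Total RNA of *3h1* and wt seedlings was depleted of ribosomal RNA and sequenced on an Ion Proton instrument. The authors discarded reads of leftover ribosomal RNA and of the spike-in, mapped the others to TAIR10 with TMAP and BBMap, and quantified ARAPORT11 genes in Partek Flow by expectation-maximization. The deposited expected counts are not normalized, and reads that map to several loci are divided between them. Use of strand is not given in the sources used here. A second table of the authors holds their ratios and p-values and was not used.

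Samples were grouped by the genotype in the labels. Expected counts were rounded, filtered with filterByExpr (minimum count 10), normalized by TMM and tested in R 4.3.3 with edgeR 4.0.16 (quasi-likelihood), with Benjamini-Hochberg adjustment over all tested genes. Library totals and shares use unrounded counts and exact permutation tests (scipy 1.17.1). DESeq2 1.42.0, limma 3.58.1, other scalings and filters, a replicate block and each library left out served as alternatives. Simulated counts with known changes were used to test the scripts.

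Members and gene lists were chosen with earlier results of these data known. Named genes are those past a threshold, the 10 smallest p values, the 10 highest mean counts, the annotated genes by group, and 2 genes per nuclear list. Gene names come from RefSeq notes on TAIR10.1, whose mitochondrial sequence is not that of TAIR10, so no coordinates, lengths or sequences are given.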

Additional observations from a re-analysis of the deposited data

How the results depend on the processing

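With 3 libraries a group, depth limited the rare genes most, since 37 of the 128 mitochondrial genes were too low to test. Replicate numbers are shared between the genotypes, but same-numbered libraries did not deviate together (correlations of -0.05, -0.14 and -0.11 for numbers 1, 2 and 3, and no library was most like its own number), so they were not taken as pairs. With the replicate block, 1340 of all genes and 8 mitochondrial genes, 6 of them lower in *3h1*, had an unadjusted p value under 0.05, 2 had a fold change over 2 as well, after adjustment 3 of all genes and 0 mitochondrial genes were under 0.05, the median log2 fold change was -0.12, and 3 respiratory chain and 2 alternative respiration genes were called. The chromosome 2 insertion genes, planned as a list and as an addition to both totals, could not be run because their counts were not analysed here.

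All genes with an unadjusted p value under 0.05 numbered 995 in DESeq2, against 1658, and 1169 to 2813 with a library left out. With an adjusted p value under 0.05 there were 33 in DESeq2, 12 without a filter, 3 with 10 counts in every library, 11 with library totals, and 3 to 96 with a library left out, against 7. With a library left out, mitochondrial genes numbered 6 to 17 at an unadjusted p value under 0.05, 5 to 13 of these lower in *3h1*, and 0 to 4 with a fold change over 2. The last count was 4 without a filter and 0 with 10 counts in every library, against 2. ATMG00910 and ATMG00530 had fewer than 10 counts in each wt library, so the stricter filter left both untested. With library totals, a scaling added after the data were seen, 1 mitochondrial gene was lower, 1 respiratory chain gene was called and the median was 0.0909. The median was -0.10 with 10 counts in every library and -0.17 to -0.10 with a library left out. Its gap to the median of all genes was -0.24 to -0.10 over 15 alternatives. Respiratory chain genes numbered 1 to 5 and alternative respiration genes 0 to 4 with a library left out.

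The mitochondrial share of the total differed by 0.08 percentage points, by 0.03 to 0.14 with a library left out and by -0.11 without chloroplast counts in the total. The log2 ratio per nuclear count was -0.1636 to 0.0518 with a library left out. The median share ratio was 0.0323 without ATMG00360 and -0.1292 to 0.0897 with a library left out. Of the 8 genes with an unadjusted p value under 0.05, ATMG01170 and ATMG00910 kept it wherever they were tested. No named gene passed the test in the opposite direction in any alternative.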
